A study of Mus musculus with 6 samples.

Results

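The S100 calcium-binding genes described here are *S100a1*, *S100a4*, *S100a6*, *S100a8*, *S100a9*, *S100a10*, *S100a11* and *S100a13*. They were taken from the deposited gene table by symbol, and all 8 were found among its 29097 rows. Transcriptomes came from peripheral blood (PB) neutrophils sorted as CD45+CD11b+Ly6G+ cells and sequenced with Smart-seq2, a full-length cDNA method primed on poly(A). Ligature-induced periodontitis (LIP) is a model in which a silk thread tied around the molars gathers plaque and inflames the gum. The 3 LIP libraries (labelled Lig) came from C57BL/6 male mice aged 8 weeks that carried ligatures on the second molars of both jaws for 14 d, and the 3 control libraries (Ctrl) came from unligated mice of the same strain, sex and age. Each library pooled neutrophils of 5 mice, so a value is the mean of a pool and the spread between mice inside a pool was not measured.

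S100 proteins are small EF-hand proteins, in which a helix-loop-helix fold takes up calcium and exposes a surface that grips partner proteins. Most act as homodimers or heterodimers. S100A8 and S100A9 pair into calprotectin, an abundant cytosolic protein of neutrophils that withholds zinc and manganese from microbes. When released from stressed or dying cells, calprotectin acts as an alarmin, a danger signal read by TLR4 and other receptors on myeloid cells. Inside the cell, other S100 proteins bind annexins, myosin or ubiquitin ligase adaptors.

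All 8 genes lie on mouse chromosome 3 (GRCm38) in a cluster that holds most of the S100 family. *S100a1* (ENSMUSG00000044080, 90511034-90514392, minus strand) and *S100a13* (ENSMUSG00000042312, 90514435-90524581, plus strand) stand back to back, 42 bases apart in the annotation of the table. *S100a4* (ENSMUSG00000001020, 90603771-90606045), *S100a6* (ENSMUSG00000001025, 90612882-90624181) and *S100a8* (ENSMUSG00000056054, 90668978-90670035) follow on the plus strand. *S100a9* (ENSMUSG00000056071, 90692632-90695721) lies on the minus strand, its start 26.7 kb from that of *S100a8*. *S100a11* (ENSMUSG00000027907, 93520488-93526287) and *S100a10* (ENSMUSG00000041959, 93555080-93564643) lie 2.82 Mb further along, 28.8 kb from each other. No other gene that reached 1 in mean FPKM overlaps any of the 8.

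RefSeq promoter windows (GRCm38.p6, 250 bases before to 50 bases after the start) were matched by symbol for 7 of the 8 genes. Stretches of 3 windows are shown because they belong to the pair with the highest levels and to the neighbours that share a start region. Capitals mark matches, on either strand, to the PU.1 core GAGGAA (read TTCCTC here), the C/EBP core TTGCNNAA and the TATA box TATAAA. PU.1 and C/EBP factors are transcription factors of the myeloid lineage. The first stretch lies at chr3:90668821-90668977, upstream of the start that the table gives for *S100a8*. The second, chr3:90669029-90669053, covers the TATA box of *S100a8*, whose RefSeq start lies 93 bases after the table's start. The third is the 250 bases before *S100a9* at chr3:90695722-90695971 on the minus strand, and the fourth is the gap between *S100a1* and *S100a13* at chr3:90514393-90514434, read on the plus strand.
S100a8 upstream: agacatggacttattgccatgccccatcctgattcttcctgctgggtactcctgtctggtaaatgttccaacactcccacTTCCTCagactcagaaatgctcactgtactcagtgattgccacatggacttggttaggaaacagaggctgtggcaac
S100a8 TATA region: caagctTTCCTCTATAAAagcagct
S100a9 upstream: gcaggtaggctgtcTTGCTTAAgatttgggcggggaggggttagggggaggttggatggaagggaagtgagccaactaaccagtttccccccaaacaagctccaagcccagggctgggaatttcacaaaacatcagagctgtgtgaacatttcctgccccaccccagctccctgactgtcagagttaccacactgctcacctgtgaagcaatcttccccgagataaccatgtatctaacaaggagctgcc
S100a1 to S100a13 gap: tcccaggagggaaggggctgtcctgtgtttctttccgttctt

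The *S100a8* window held the PU.1 core 170 and 36 bases upstream and a TATA box 30 bases upstream of the RefSeq start. The PU.1 core stood in 28.3% of all 32851 promoter windows and the TATA box in 13.6%. The *S100a9* window held the C/EBP core 236 bases upstream, a match present in 10.8% of all windows, and a TATA box beginning at the annotated start itself. A TATA box also stood 31 bases upstream of *S100a4*, whose window held the PU.1 core 19 bases after the start. The window of *S100a11* held the PU.1 core 153 bases upstream. The STAT-binding sequence TTCNNNGAA, in 8.3% of all windows, was in none of the 7. The interferon response core GAAANNGAA, in 8.56% of all windows, was in that of *S100a1* only, 214 bases upstream. The windows of *S100a1*, *S100a13* and *S100a11* held 11, 14 and 15 CpG dinucleotides against a median of 7 over all windows, whereas *S100a8* and *S100a9* held 4 and 2. The *S100a1* and *S100a13* windows share 204 bases, and their RefSeq starts are 104 bases apart. These matches describe the letters only.

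The libraries held 52186555 to 57262379 counts each. Of the 29097 genes, 10440 reached 1 in mean FPKM (fragments per kilobase of transcript, scaled to sequencing depth) and were tested, all 8 S100 genes among them. In the edgeR quasi-likelihood test, a threshold of 0.05 on the adjusted p called 26.5% of tested genes higher and 27.2% lower in LIP. In 63.4% the depth-scaled counts (CPM, TMM-normalized) of the groups did not overlap. The defining transcripts of neutrophils were present: all 21 genes of a mature neutrophil list that holds no S100 gene were tested, and all were higher in LIP, with a summed level of 4477 to 4606 FPKM in Ctrl and 13064 to 13910 in LIP. All 10 erythroid genes were lower (180823 to 187053 FPKM in Ctrl, 19509 to 20220 in LIP), as were all 12 B cell genes (11003 to 11985 against 1820 to 1833) and all 12 T cell genes (316 to 344 against 51.7 to 67.5). All 9 platelet genes were higher (854 to 1084 against 1788 to 2101), and of 12 monocyte genes 10 were higher and 2 lower (506 to 586 against 638 to 685). Summed levels for NK cell genes were 236 to 285 and 241 to 263 FPKM with 3 of 7 higher, and for eosinophil and basophil genes 13.1 to 19.9 and 17.7 to 23.1 FPKM with 2 higher and 1 lower of 7. No listed gene was at 0 counts in all 6 libraries. The part these markers have in the results on S100 genes was not tested, and in bulk libraries a different share of cells and a different amount of RNA per cell cannot be told apart.

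In LIP, 6 of the 8 S100 genes rose (*S100a8*, *S100a9*, *S100a11*, *S100a6*, *S100a1* and *S100a4*), none fell and 2 were not called (*S100a10* and *S100a13*), against backgrounds of 26.5% higher and 27.2% lower over all tested genes. The median log2 fold change of the 8 genes was 1.53, beside -0.09 over all tested genes and 1.79 over the mature neutrophil list. The 6 genes that rose were also called higher with library totals in place of TMM, beside 1919 higher and 4146 lower of all 10440 tested genes. With totals that leave out haemoglobin and immunoglobulin genes *S100a4* lost its call and *S100a10* was called lower, beside 1428 higher and 5194 lower of all 10440 tested genes. *S100a10* and *S100a13* had negative log2 fold changes with either kind of total. With libraries scaled on the mature neutrophil list, which moves the median of all genes to -1.87, 1 of the 8 genes was higher (*S100a9*) and 3 were lower (*S100a4*, *S100a10* and *S100a13*), and the other 4 were not called. On that scale 72 of all 10440 tested genes were higher and 9157 lower.

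The calprotectin genes were the most abundant of the set. *S100a9*, whose protein carries the long C-terminal tail of the heterodimer, stood at 6313, 7777 and 7214 FPKM in the Ctrl libraries and at 23035, 24360 and 23079 FPKM in the LIP libraries. Every LIP library lay far above every Ctrl library. The means were 7101 ± 738 and 23491 ± 753 FPKM (SD, n = 3 each), and the log2 fold change was 2.03 (SE 0.0858, adjusted p = 8.55e-08 in edgeR), or 4.09-fold. By mean FPKM it ranked 9th of all genes in Ctrl, where haemoglobin genes held the first 4 places, and 1st in LIP. Unless another scaling is named, fold changes come from TMM-normalized counts and not from the FPKM values beside them. The ratio of mean FPKM, LIP over Ctrl, was 3.31 for *S100a9*, 3.12 for *S100a8*, 2.77 for *S100a11* and 2.68 for *S100a6*. It was 2.03 for *S100a1*, 1.51 for *S100a4*, 0.905 for *S100a13* and 0.854 for *S100a10*.

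*S100a8*, the partner that heterodimerizes with S100A9, stood at 6059, 7750 and 7152 FPKM in Ctrl and at 21237, 23540 and 20600 FPKM in LIP, again without overlap. The means were 6987 ± 858 and 21792 ± 1547 FPKM (SD, n = 3 each). The log2 fold change was 1.95 (SE 0.0985, adjusted p = 2.31e-07 in edgeR), or 3.85-fold, and the rank went from 10th to 2nd. Only 1.6% of tested genes had a larger log2 fold change than *S100a9* and 2.05% a larger one than *S100a8*.

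Both genes kept close to equal levels per length. The ratio of *S100a8* to *S100a9* FPKM was 0.96, 0.997 and 0.991 in Ctrl and 0.922, 0.966 and 0.893 in LIP. The groups overlapped, and 0.983 ± 0.02 against 0.927 ± 0.0371 (SD, n = 3 each) gave p = 0.2 in a two-sided exact permutation test (0.229 after Benjamini-Hochberg adjustment over 8 tests of ratios and shares). With 3 libraries against 3 such a test cannot go below 0.1. Together both genes took 0.927% ± 0.108 of Ctrl counts and 2.94% ± 0.136 of LIP counts (SD, n = 3 each).

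**Figure D1:**
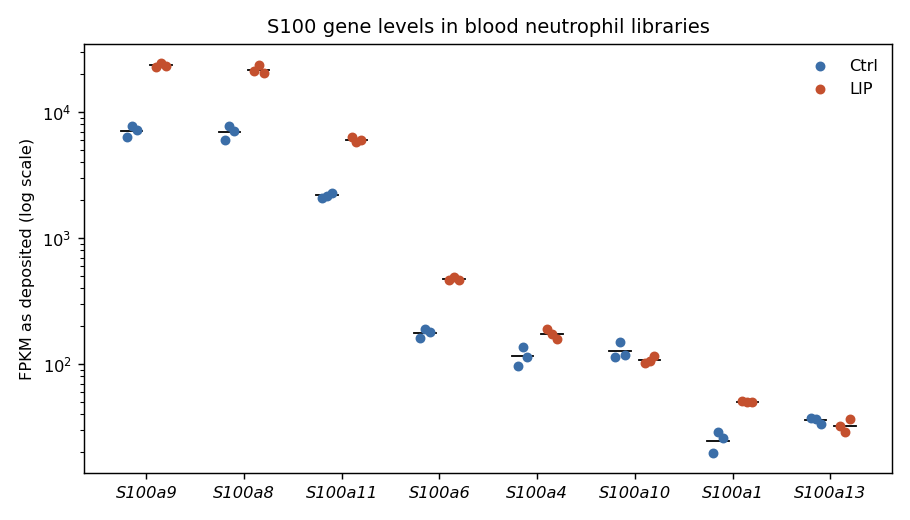
FPKM as deposited (log axis) for the 8 S100 genes; each point is 1 library of Ctrl or LIP and each line a group mean. *S100a9* and *S100a8* lie above the other 6 genes in every library, and the groups overlap for *S100a10* and *S100a13* only.

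The annexin-binding members differed from each other. *S100a11*, which binds annexin A1, stood at 2103, 2164 and 2285 FPKM in Ctrl and at 6351, 5830 and 5967 FPKM in LIP. All LIP libraries were above all Ctrl libraries, and the spread inside each group was small. Means of 2184 ± 92.4 and 6049 ± 270 FPKM (SD, n = 3 each) went with a log2 fold change of 1.78 (SE 0.076, adjusted p = 9.37e-08 in edgeR), or 3.43-fold. Its rank went from 26th to 9th.

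*S100a10*, also called p11, has lost calcium binding and forms a tetramer with annexin A2 under the plasma membrane. It stood at 114, 149 and 119 FPKM in Ctrl and at 103, 106 and 117 FPKM in LIP, and the groups overlapped. In TMM-normalized counts it stood at 132, 178 and 140.1 CPM in Ctrl and at 151, 154 and 169.7 CPM in LIP. The log2 fold change was 0.08 (SE 0.132, 95% interval -0.22 to 0.37, adjusted p = 0.644 in edgeR). The interval leaves out a change of the size seen for *S100a11*, its neighbour in the cluster. The ratio of *S100a11* to *S100a10* was 18.4, 14.5 and 19.2 in Ctrl and 61.6, 54.8 and 51.0 in LIP, without overlap, and p = 0.1 in the exact permutation test was the smallest possible (adjusted p = 0.16).

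*S100a6*, or calcyclin, binds the ubiquitin ligase adaptor CACYBP. It stood at 161, 191 and 179.9 FPKM in Ctrl and at 469, 488 and 468 FPKM in LIP. No LIP library came near a Ctrl library. Means of 177 ± 15.4 and 475 ± 11.4 FPKM (SD, n = 3 each) went with a log2 fold change of 1.73 (SE 0.101, adjusted p = 4.68e-07 in edgeR), or 3.32-fold.

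*S100a4*, which binds non-muscle myosin heavy chain and is known for its part in cell motility, stood at 97.2, 137 and 114 FPKM in Ctrl and at 192, 175 and 159 FPKM in LIP. The groups did not overlap, but the highest Ctrl and lowest LIP libraries were close. The log2 fold change was 0.90 (SE 0.153, adjusted p = 0.000654 in edgeR), or 1.87-fold, the smallest among the 6 genes that rose. Without haemoglobin and immunoglobulin genes in the library totals it was 0.36 (adjusted p = 0.0563) and no longer called.

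*S100a1*, best known as a calcium sensor of heart and skeletal muscle, was the lowest of the 8 in Ctrl at 19.6, 28.9 and 25.8 FPKM. The LIP libraries stood at 51.0, 49.8 and 50 FPKM, closely spaced and all above Ctrl. The log2 fold change was 1.32 (SE 0.196, adjusted p = 0.000253 in edgeR), or 2.51-fold.

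*S100a13*, which takes part in the leaderless release of FGF1 and interleukin-1α, stood at 37.7, 36.7 and 33.8 FPKM in Ctrl and at 32.5, 28.8 and 36.6 FPKM in LIP. The groups overlapped. The log2 fold change was 0.16 (SE 0.177, 95% interval -0.23 to 0.56, adjusted p = 0.455 in edgeR). Across the 42 bases that part it from *S100a1*, the ratio of *S100a1* to *S100a13* was 0.52, 0.788 and 0.763 in Ctrl and 1.57, 1.73 and 1.37 in LIP. The groups did not overlap, and the order of both genes turned over, with p = 0.1 in the exact permutation test (adjusted p = 0.16), again the smallest the design allows.

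Ordered by mean FPKM, the 8 genes ran *S100a9*, *S100a8*, *S100a11*, *S100a6*, *S100a10*, *S100a4*, *S100a13* and *S100a1* in Ctrl. Neighbours in this order overlapped for *S100a9* with *S100a8* and for *S100a10* with *S100a4*. In LIP the order ran *S100a9*, *S100a8*, *S100a11*, *S100a6*, *S100a4*, *S100a10*, *S100a1* and *S100a13*, with an overlap for *S100a9* with *S100a8* only. The 8 genes took 0.977%, 1.21% and 1.13% of all counts in the Ctrl libraries and 3.32%, 3.52% and 3.28% in the LIP libraries. The mean share was 1.1% ± 0.116 against 3.37% ± 0.125 (SD, n = 3 each), a difference of 2.27 percentage points with p = 0.1 in the exact permutation test (adjusted p = 0.16). *S100a8* and *S100a9* made up 83.1% to 84.9% of the counts of the 8 genes in Ctrl and 86.5% to 88.1% in LIP. Counts on haemoglobin and immunoglobulin genes, which fill the same totals, went from 15.9% ± 0.31 to 1.74% ± 0.0239.

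**Figure D2:**
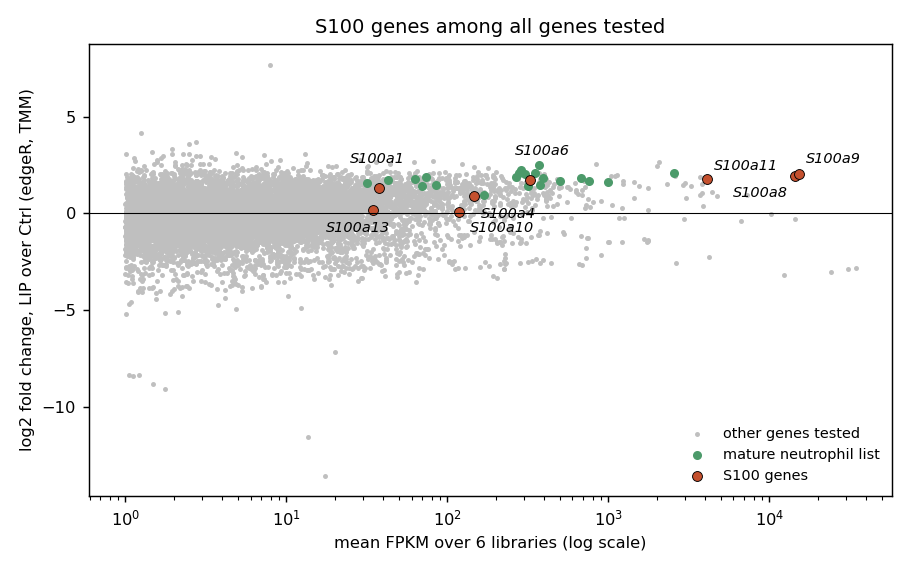
Log2 fold change (LIP over Ctrl, edgeR with TMM scaling) against mean FPKM over the 6 libraries (log axis) for the 10440 tested genes, with S100 genes in red and the mature neutrophil list in green. *S100a8*, *S100a9*, *S100a11*, *S100a6* and *S100a1* lie within the range of the neutrophil list (0.93 to 2.51, median 1.79) and *S100a4* at 0.90 just below it; *S100a10* and *S100a13* lie near 0.

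The size and sign of these changes depended on the scaling. With libraries scaled so that the mature neutrophil genes are level (median 0.02), the log2 fold change was 0.26 for *S100a9* (adjusted p = 0.0378 in edgeR), 0.17 for *S100a8* (0.175), 0.0053 for *S100a11* (0.958) and -0.05 for *S100a6* (0.716). *S100a1* stood at -0.45 (adjusted p = 0.0737). On the same scale *S100a4* fell by 0.88 (adjusted p = 0.000421), *S100a13* by 1.61 (1.15e-05) and *S100a10* by 1.70 (1.03e-06), beside a median of -1.87 over all tested genes. Another scaling moves all 8 genes by about the same amount, so the differences between them are not affected.

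**Figure D3:**
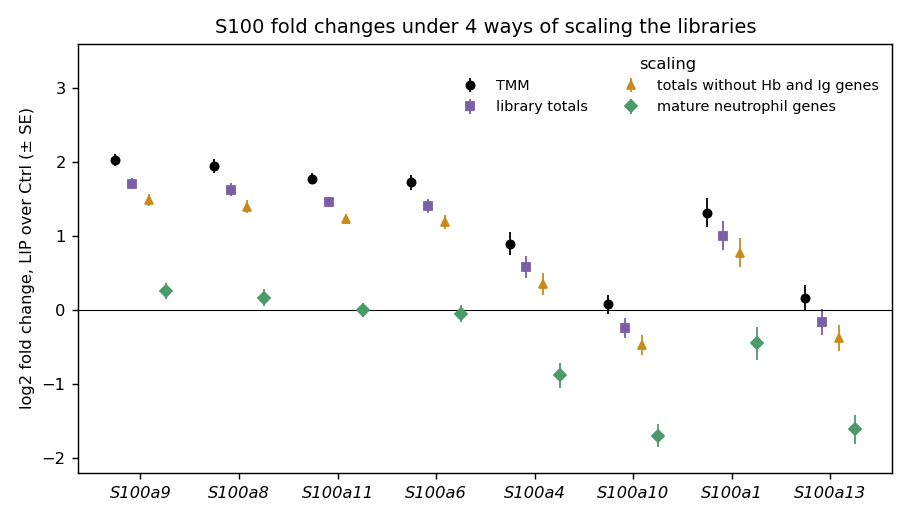
Log2 fold change ± SE of the 8 S100 genes (edgeR) with libraries scaled by TMM, by library totals, by totals without haemoglobin (Hb) and immunoglobulin (Ig) genes, and on the mature neutrophil list. On the last scale *S100a9* stands at 0.26 and *S100a10* at -1.70; a change of scaling moves all genes together.

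Along the cluster, 37 genes of the table lie from *S100a1* to *S100a10*, of which 26 had a mean FPKM under 1 and were not tested. Of the 3 tested genes that are not members, *Pglyrp4*, a peptidoglycan recognition gene on the far side of *S100a9* from *S100a8*, had a log2 fold change of 2.10 (SE 0.495, adjusted p = 0.00484 in edgeR). Its mean FPKM over the 6 libraries was 1.47, close to the limit of 1. At such a level a gene higher in LIP can pass that limit through the LIP libraries alone. The other two, *Gm9774* at -0.24 (adjusted p = 0.655) and *Gm4202* at 0.48 (adjusted p = 0.168), were not called. These genes were named after their values were seen. The other S100 genes looked for were barely detected: *S100a3*, *S100a7a*, *S100a16*, *S100b* and *S100g* summed to 0.502 to 1.38 FPKM in Ctrl and 0.324 to 2.37 FPKM in LIP, and none was tested. *S100a5*, *S100a14* and *S100z* were looked for by symbol and not found. *S100a2*, which lies in the cluster and was not on that list, had a mean FPKM of 0.0408 and was not tested.

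**Figure D4:**
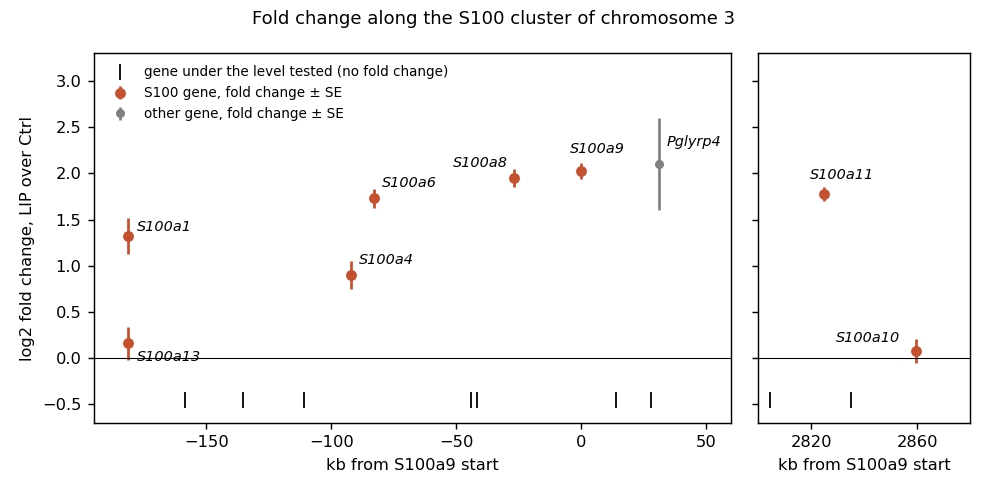
Log2 fold change ± SE (LIP over Ctrl, edgeR) of tested genes against the distance of their start from that of *S100a9* in kb, in 2 windows of the cluster; ticks mark genes under 1 FPKM. *S100a1* at 1.32 and *S100a13* at 0.16 share 1 position on this scale, and *S100a11* at 1.78 neighbours *S100a10* at 0.08; genes between the windows are not drawn.

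The 2 calprotectin genes had *Hp*, *Asprv1* and *Mcemp1* in common among the 5 genes nearest to each in pattern over the 6 libraries. Nearness was the Euclidean distance between centred log2 CPM values, over the 3382 genes that reached 10 in mean FPKM. For *S100a9* the nearest were *Asprv1*, a retroviral-like aspartic protease gene (distance 0.0551), *Hp*, the gene of haptoglobin (0.071), *Retnlg*, a resistin-like gene of the mature neutrophil list (0.124), *Mcemp1*, a membrane protein gene (0.126) and *S100a8* (0.138). For *S100a8* they were *Hp* (0.0966), *Mir7678* (0.12), *S100a9* (0.138), *Asprv1* (0.18) and *Mcemp1* (0.181). *Mir7678* lies within *Slpi*, so its reads cannot be told apart from those of that gene. The log2 fold changes of *Hp*, *Asprv1* and *Retnlg* were 2.01, 2.06 and 2.11. Such a distance takes in the difference between the groups, so close fold changes followed from how these genes were chosen. The places of the other S100 genes draw on the same difference. In the order for *S100a8*, *S100a6* came 29th, *S100a11* 65th, *S100a1* 327th, *S100a4* 838th, *S100a13* 1827th and *S100a10* 1876th.

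Among 8 receptors and co-receptors that bind secreted S100 proteins, 7 were tested, of which 5 rose, none fell and 2 were not called. Their median log2 fold change was 1.11. The shares over all tested genes were 26.5% higher and 27.2% lower. *Tlr4*, the receptor through which calprotectin signals, was low at 3.34, 1.73 and 2.64 FPKM in Ctrl and 12.6, 12 and 12.6 FPKM in LIP. The groups were well apart, and the log2 fold change was 2.58 (SE 0.216, adjusted p = 4.54e-06 in edgeR). *Cd14*, the co-receptor of TLR4, rose from 829.7 ± 47.6 to 2067 ± 14.9 FPKM (SD over 3 libraries each), with a log2 fold change of 1.62 (SE 0.0678, adjusted p = 8.5e-08 in edgeR). *Emb*, which encodes embigin, rose by 1.11 on the log2 scale (SE 0.0889, adjusted p = 3.37e-06), and *Bsg*, the gene of basigin, stood at 0.09 (adjusted p = 0.516). *Ager*, the gene of the receptor RAGE, was at 0.81 ± 0.196 FPKM in Ctrl against 0.646 ± 0.373 (SD, n = 3 each) and was not tested. With library totals in place of TMM, 4 of the 7 were higher and 0 lower, beside 1919 higher and 4146 lower of all 10440 tested genes. Scaled on the mature neutrophil list, 1 of the 7 was higher and 4 were lower, beside 72 higher and 9157 lower of all 10440 tested genes.

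Among 14 intracellular partners, 13 were tested, with 7 higher, 3 lower, 3 not called and a median log2 fold change of 0.42. The shares over all tested genes were 26.5% higher and 27.2% lower. *Anxa1* rose from 221 ± 9.63 to 542 ± 54.5 FPKM (SD over 3 libraries each), with a log2 fold change of 1.60 (SE 0.0951, adjusted p = 5.4e-07 in edgeR). *Anxa2* rose from 121 ± 11.8 to 326 ± 15 FPKM (SD over 3 libraries each), with a log2 fold change of 1.74 (SE 0.0981, adjusted p = 3.94e-07 in edgeR). *Cybb*, the catalytic subunit of the NADPH oxidase that calprotectin binds, stood at 54.5, 45.8 and 62.2 FPKM in Ctrl and at 54.0, 62.3 and 58.9 FPKM in LIP. Its FPKM values overlapped between groups although its TMM-normalized CPM did not, and the log2 fold change was 0.42 (SE 0.12, adjusted p = 0.0139 in edgeR). *Cacybp* went the other way, from 77.0, 92.6 and 78.4 FPKM in Ctrl to 20.8, 29.9 and 23.8 FPKM in LIP, a log2 fold change of -1.43 (SE 0.153, adjusted p = 2.59e-05 in edgeR). With library totals in place of TMM, 4 of the 13 were higher and 4 lower, beside 1919 higher and 4146 lower of all 10440 tested genes. On the neutrophil scale none was higher and 10 were lower, beside 72 higher and 9157 lower of all tested genes.

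Set against partner genes, *S100a10* to *Anxa2* was lower in LIP, *S100a6* to *Cacybp* was higher, and the other partner ratios overlapped between groups. The partner and neighbour ratios were chosen after the members' values were seen. The ratio of *S100a10* to *Anxa2* was 0.976, 1.12 and 1.07 in Ctrl and 0.316, 0.312 and 0.376 in LIP, without overlap (p = 0.1 in the exact permutation test, adjusted p = 0.16). The ratio of *S100a6* to *Cacybp* was 2.09, 2.06 and 2.3 in Ctrl and 22.5, 16.4 and 19.6 in LIP, also without overlap and with the same p = 0.1 (exact permutation test). In contrast, *S100a11* to *Anxa1* (9.89 ± 0.41 against 11.2 ± 1.31, SD, n = 3 each, p = 0.3 in the exact permutation test) and *S100a4* to *Myh9* (16.5 ± 2.14 against 19.8 ± 3.1, SD, n = 3 each, p = 0.2 in the exact permutation test) overlapped between groups. These ratios do not depend on how libraries are scaled.

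**Figure D5:**
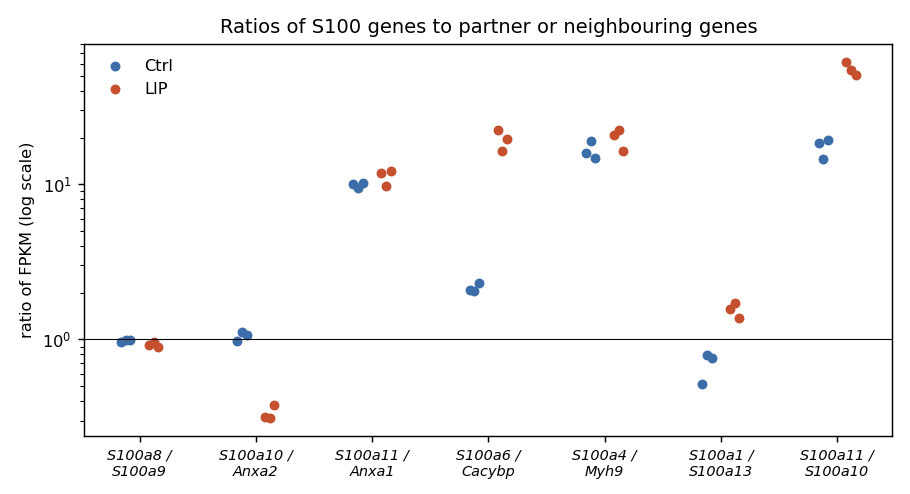
Ratio of FPKM (log axis) of S100 genes to partner or neighbouring genes in each library of Ctrl and LIP; the line marks equal levels. *S100a10* to *Anxa2* goes from 1.06 ± 0.0713 to 0.335 ± 0.036 and *S100a6* to *Cacybp* from 2.15 ± 0.128 to 19.5 ± 3.09 (SD, n = 3 each), whereas *S100a8* to *S100a9* stays near 1.

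Of 29 other EF-hand genes, 28 were tested, with 17 higher, 1 lower (*Cetn3*, named after its value was seen), 10 not called and a median log2 fold change of 0.58. Over all tested genes 26.5% were higher and 27.2% lower. *Lcp1*, the gene of the actin bundler L-plastin, rose from 171 ± 31.9 to 404 ± 25.8 FPKM (SD over 3 libraries each), with a log2 fold change of 1.55 (SE 0.12, adjusted p = 2.66e-06 in edgeR). *Efhd2*, or swiprosin-1, had a log2 fold change of 1.22 (SE 0.0877, adjusted p = 1.74e-06). *Calm2*, a calmodulin gene, had 0.42 (SE 0.128, adjusted p = 0.018), with overlapping groups. With library totals 10 were higher and 5 lower, beside 1919 higher and 4146 lower of all 10440 tested genes. On the neutrophil scale none was higher and 24 were lower, beside 72 higher and 9157 lower of all tested genes.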

How the data were processed

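RNA from sorted PB neutrophils of 3 Ctrl and 3 LIP pools was amplified with a Smart-seq2 protocol and sequenced in pairs. The authors deposited 1 table with raw read counts per gene and FPKM values (fragments per kilobase, scaled to depth). The submitters' processing notes name cutadapt 1.9, FastQC and GRCm38; the aligner, counter and use of strand are not given in the sources used here.

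The S100 genes and all lists were chosen with earlier results of these data known. Deposited counts were fitted with edgeR 4.0.16 (R 4.3.3; TMM, quasi-likelihood, group only, Benjamini-Hochberg, threshold 0.05) over the 10440 genes that reached 1 in mean FPKM, and the SE is the log2 fold change over the root of F. FPKM ratios and shares of counts were compared by two-sided exact permutation tests. Named genes were the 8 S100 genes, the 3 highest by mean FPKM of each context list with *Tlr4*, *Ager*, *Anxa1*, *Anxa2* and *Cacybp*, and the 5 genes nearest in pattern to *S100a8* and *S100a9*. Alternatives were library totals, median-of-ratios factors, DESeq2 1.42.0, limma 3.58.1 on log2(FPKM + 1) and log2(FPKM + 0.1), no filter or a mean FPKM of at least 5, scaling on neutrophil genes, totals without haemoglobin and immunoglobulin genes, a replicate block, and leaving out each library. The test was run on simulated data with 200 changed genes, balanced in direction. That setting has far fewer changes than these libraries, so it does not check the choice of scaling.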

Additional observations from a re-analysis of the deposited data

How the results depend on the processing

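The 6 S100 genes that rose kept direction and call in all 6 fits that left out 1 library. The counts of 6 higher and 0 lower were the same in each (range 6 to 6 and 0 to 0). Over all 10440 tested genes those fits called 2419 to 2615 higher and 2255 to 2770 lower. The log2 fold change of *S100a10* ranged from -0.0021 (without Ctrl replicate 1) to 0.24. Scaled on mature neutrophil genes, 1 S100 gene was higher and 3 were lower; log2 fold changes were -0.45 for *S100a1*, -0.88 for *S100a4*, -0.05 for *S100a6*, -1.70 for *S100a10* and -1.61 for *S100a13*. On that scale 1 receptor gene was higher and 4 lower, 0 partners higher and 10 lower, and 0 EF-hand genes higher and 24 lower. Of all 10440 tested genes, 72 were higher and 9157 lower there. With totals free of haemoglobin and immunoglobulin genes, 5 S100 genes were higher and 1 lower, beside 1428 higher and 5194 lower of all 10440 tested genes. *S100a10* stood at -0.47 and *S100a13* at -0.38 there, and the difference in the share of counts was 2.12 percentage points. With library totals *S100a10* stood at -0.24 and *S100a13* at -0.16. There 4 partners were higher and 4 lower, and 10 EF-hand genes higher and 5 lower, beside 1919 higher and 4146 lower of all tested genes. In limma with a pseudocount of 1 the same counts of partners and EF-hand genes were found, beside 2010 higher and 4249 lower of all tested genes. There *S100a10* stood at -0.22 with either pseudocount and *S100a13* at -0.14, or at -0.15 with 0.1. With a mean FPKM of at least 5 they stood at -0.09 and -0.0013. Apart from the scalings themselves, the causes were not tested.

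Of all calls, 49.4% were higher with TMM, 31.6% with library totals (median log2 fold change of all genes -0.42), 32.1% in limma (-0.31), 21.6% without haemoglobin and immunoglobulin genes (-0.64) and 0.78% on the neutrophil scale. Libraries with the same replicate number were separate pools. Their deviations correlated at 0.021, 0.056 and 0.036, beside -0.05 to 0.022 for libraries of different numbers. All were weak, and the numbers were not used to pair libraries in the main fit. With a replicate block 6 S100 genes were higher and 0 lower, and 5546 genes were called in place of 5601. With 3 pools a group, exact permutation tests could not reach 0.05.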
